A study of Mus musculus with 6 samples.

Results

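The proteasome subunit genes are the protein-coding genes of the deposited count table whose symbol begins with Psma to Psmg followed by a digit, without the inducible immunoproteasome genes Psmb8, Psmb9 and Psmb10. That rule found 47 of the 54532 genes in the table: 16 genes of the 20S core (Psma and Psmb), 21 of the 19S regulator (Psmc and Psmd), 6 of activators and an inhibitor (Psme and Psmf1) and 4 of assembly chaperones (Psmg). They were compared in L929 cells, a mouse fibroblast line of WT genotype in its label. The treated group (3 libraries) had TNF-α at 10 ng/ml together with actinomycin d at 1 µg/ml for 12 hours, and the control group (3 libraries) is labelled Control. The treatment text is attached to the control samples as well, so the groups were taken from titles and treatment labels. No group had either agent alone. Separate cultures are not stated for the libraries of a group, so each p-value covers the spread from library to library only, and that spread could be technical. The symbol rule also takes in Psmc3ip, whose product is a meiotic recombination factor named for an interaction with a subunit, and Psmd5, Psmd9 and Psmd10, whose products assist regulator assembly and leave it. Counts that leave those 4 genes out of the regulator are given where the comparison rests on them.

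The proteasome degrades proteins that carry ubiquitin chains. Its barrel, the 20S core, stacks rings of alpha subunits, which gate the entrance, on rings of beta subunits, which hold the catalytic sites. The 19S regulator caps the barrel: a ring of ATPases unfolds the substrate, and non-ATPase subunits bind and remove ubiquitin. Actinomycin d binds DNA and blocks transcription, and TNF-α signals through its receptors to NF-κB and, when new transcription is blocked, to cell death.

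Of the 47 genes, 45 had enough reads to be tested, and 31 of these were higher and 6 lower in treated libraries, while 8 did not pass the test (16 were higher and 17 lower when scaled by library size alone, and 1 and 39 with ribosomal protein genes held equal). Over all 13290 tested genes, 34.6% were called higher and 40.2% lower (74.8% either way), which is the background for each count below. The median log2 change of the 45 genes was 1.11, against −0.18 for all tested genes. A gene is called where the p of edgeR's quasi-likelihood test, adjusted by Benjamini-Hochberg over all tested genes, is under 0.05, and a log2 change is treated over control. The 31 higher genes and 7 others lower in the treated libraries had groups without overlap. Over all tested genes, 35.9% lay above the controls without overlap and 42% below (77.9% in either direction). The untested genes were Psma8, an alpha subunit gene known from testis, with 0 counts in every library (a floor of 3 counts is 0.166 to 0.187 CPM by library total), and Psmb11, the thymic beta subunit gene, with 0 counts in each treated library and 1, 1 and 0 counts in the control libraries. In bulk RNA, fewer cells of a kind and less RNA per cell cannot be told apart.

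Library totals lay between 16056207 and 18036322 counts. Levels are in CPM scaled by TMM, where the library total is multiplied by a factor, which was 0.640 to 0.797 in treated and 1.341 to 1.526 in control libraries, and the direction of a call against the controls depends on that choice. Scaled by library size alone, the all-gene median moved by −1.04, and 17.1% of all genes were higher and 59.6% lower. The ribosomal protein genes took 17.9% to 22.4% of treated and 7.32% to 8.57% of control counts. With these genes held equal, the median moved by −2.38, and 1.89% of all genes were higher and 82.3% lower. Psme2 was then the 1 member called higher, close to the threshold (edgeR adjusted p = 0.0493). Differences between members within a library do not move with the scaling. Within groups, log2 CPM values correlated between libraries at r of 0.957 to 0.991, and no library pair agreed within sampling noise. Of 10 fibroblast marker genes, 9 averaged at least 1 CPM, with summed levels of 20410 to 23833 CPM in treated and 6337 to 8199 CPM in control libraries. Pdgfra and Pdgfrb of that list were called lower and Thy1 was near 0. Summed macrophage markers reached 43.9 to 55.4 CPM in treated libraries, against 3.88 to 4.80 CPM in control libraries, almost all from Cd68 and Lyz2, with Ptprc and Adgre1 at 0 counts in treated libraries. Summed epithelial, endothelial and lymphocyte markers reached at most 2.03 CPM in any library. The part of other cell types in the changes of the members was not tested.

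**Figure D1:**
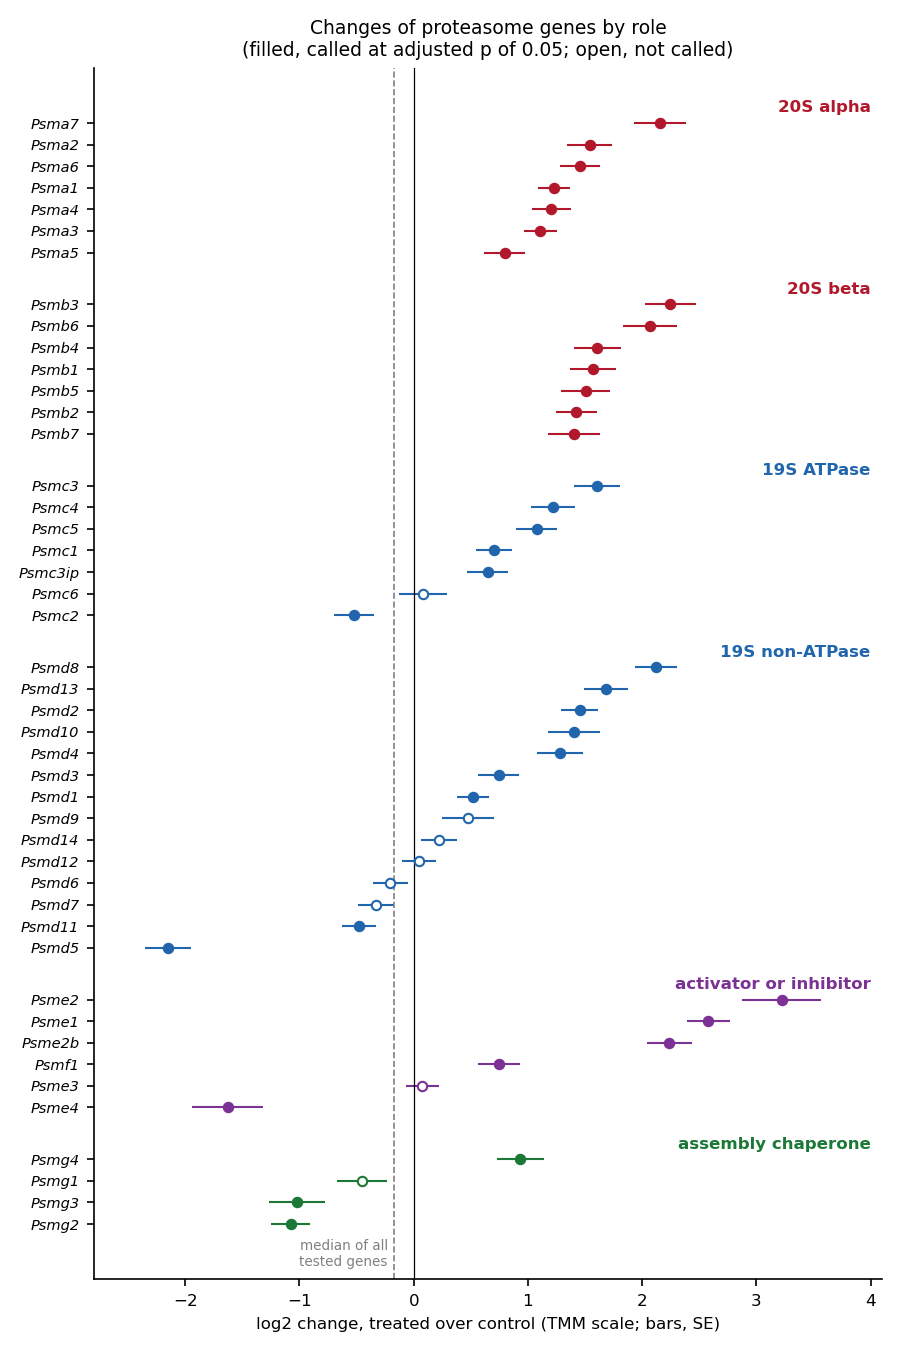
Log2 change of each of the 45 tested proteasome genes (treated over control, TMM scale; bars, SE), by role, with filled points for genes called at an adjusted p of 0.05 and a dashed line at the median of all tested genes. All 14 tested 20S core genes lie right of 0, at 0.80 to 2.25, whereas the 21 regulator genes span −2.15 to 2.12; with ribosomal protein genes held equal the whole pattern moves left and no core gene is called higher.

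All 14 tested genes of the 20S core were higher in treated libraries, with log2 changes of 0.80 to 2.25 (median 1.48) and groups without overlap; 9 of 14 were called higher and 0 lower by library size alone, and 0 higher and 12 lower with ribosomal protein genes held equal. The largest adjusted p among them was 0.0019 (edgeR's quasi-likelihood test). Relative to the median of all genes the core stood 1.66 higher, a difference that a change of scaling leaves nearly as it is by construction.

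Among the alpha genes (median 1.23 over 7 tested), Psma7 changed most. Psma7 had 1182, 905 and 652 CPM in the treated libraries, against 234, 185 and 195 CPM in the control libraries, a log2 change of 2.16 ± 0.23 (SE; edgeR adjusted p = 7.8e-06). Each treated library lay above each control. Psma5 changed least of the core, with 534, 434 and 351 CPM in the treated libraries, against 272, 233 and 255 CPM in the control libraries, a log2 change of 0.80 ± 0.18 (edgeR adjusted p = 0.0019). The groups did not overlap, but the change was −0.26 by library size alone and −0.13 in a fit that removed the trend with gene length, where it was not called. Between these lay Psma2 (1.54), Psma6 (1.46), Psma1 (1.23), Psma4 (1.20) and Psma3 (1.11), all called higher.

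The beta genes had a median of 1.57 over 7 tested. Their highest was Psmb3, a structural beta subunit, with 897, 774 and 516 CPM in the treated libraries, against 178, 129.9 and 152 CPM in the control libraries, a log2 change of 2.25 ± 0.23 (edgeR adjusted p = 5.9e-06). All 3 constitutive catalytic genes were called higher on the TMM scale and had negative changes with ribosomal protein genes held equal. Psmb6, for the caspase-like site, had 654, 499 and 351 CPM in the treated libraries, against 144, 98.9 and 115 CPM in the control libraries, a log2 change of 2.07 ± 0.24 (edgeR adjusted p = 1.8e-05). Psmb5, for the chymotrypsin-like site that bortezomib mainly inhibits, had 328, 245 and 186 CPM in the treated libraries, against 104, 77.3 and 85.7 CPM in the control libraries, a log2 change of 1.51 ± 0.21 (edgeR adjusted p = 7.8e-05). Its call was lost in the fit that removed the length trend (0.27, adjusted p = 0.176). Psmb7, for the trypsin-like site, had 417, 254 and 222 CPM in the treated libraries, against 122, 99.1 and 117 CPM in the control libraries, a log2 change of 1.40 ± 0.23 (edgeR adjusted p = 2.2e-04). The coordinates of Psmb7 overlap those of Nek6 on the opposite strand, which had 43.7% as many counts, and the sources used here do not give whether counting used strand. Treated library 1 was the highest treated library for each of these 4 genes and treated library 3 the lowest, and for none of them did a treated library reach down to a control. Psmb4 (1.61), Psmb1 (1.57) and Psmb2 (1.42) were called higher too. Their inducible counterparts, which replace the catalytic subunits in the immunoproteasome, were measured beside them: Psmb8 changed by 1.94 ± 0.22, Psmb9 by 2.07 ± 0.23 and Psmb10 by 1.71 ± 0.28, all called higher, at mean levels of 111, 85.6 and 63.8 CPM in treated and 29.0, 20.3 and 19.4 CPM in control libraries; with ribosomal protein genes held equal all 3 turned negative.

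**Figure D2:**
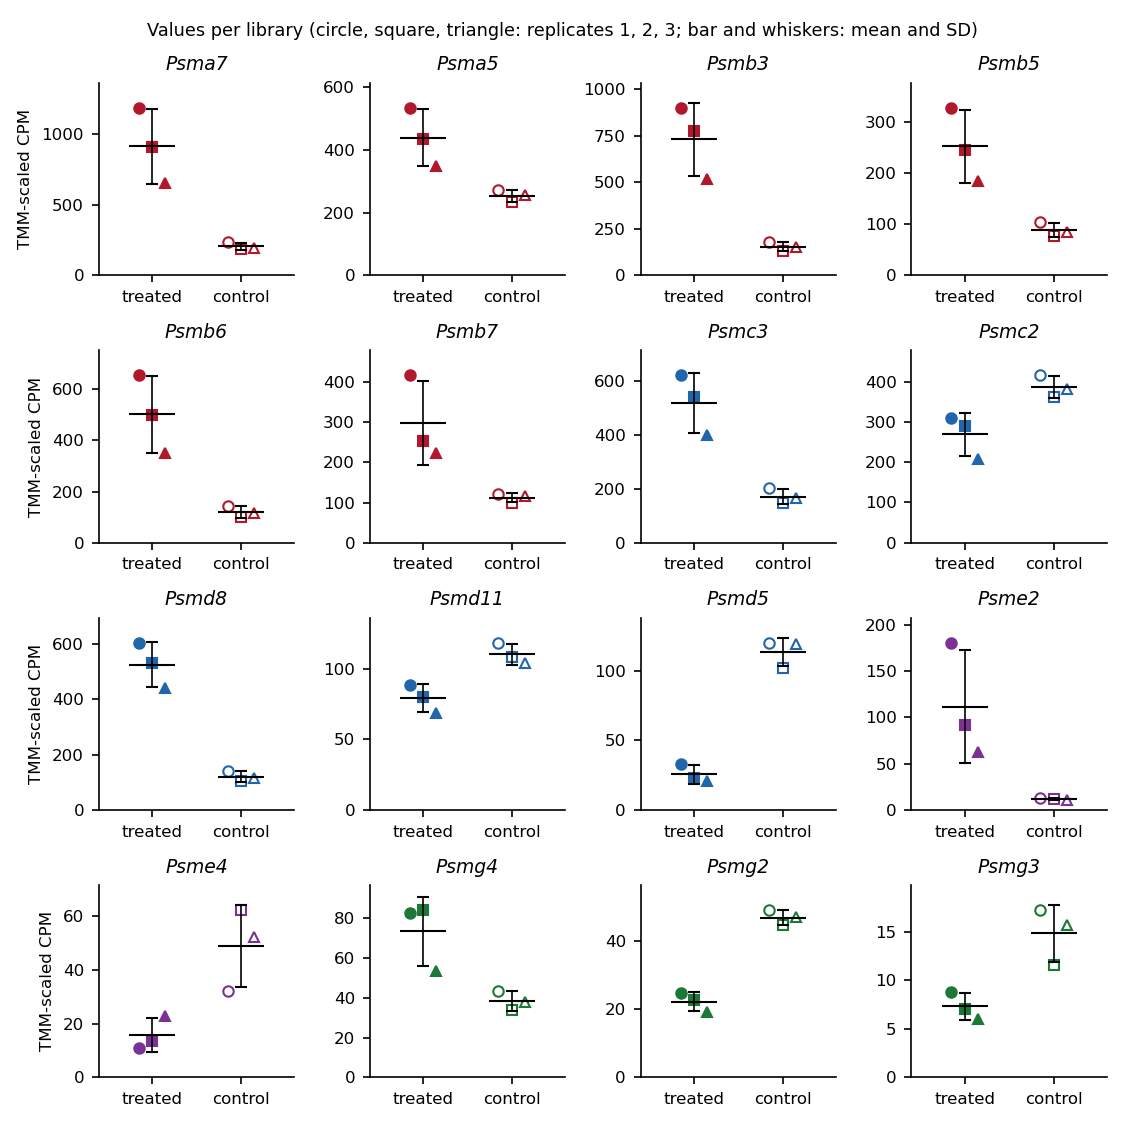
TMM-scaled CPM of 16 proteasome genes in each library (treated left, control right; circle, square and triangle are replicates 1, 2 and 3, bar and whiskers mean and SD, axes from 0). Core genes such as Psma7 stand above the controls in every treated library on this scale, whereas Psmc2, Psmd11, Psmd5, Psme4, Psmg2 and Psmg3 stand below; Psma7 and the other core genes shown have negative log2 changes with ribosomal protein genes held equal.

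In the 19S regulator 12 of 21 genes were higher, 3 lower and 6 not called, with a median log2 change of 0.65; by library size alone 4 were higher and 12 lower, and with ribosomal protein genes held equal 0 were higher and 20 lower. Without Psmc3ip, Psmd5, Psmd9 and Psmd10, 10 of 17 were higher and 2 lower, with a median of 0.70. The calls within the regulator thus ran in both directions on the TMM scale, while every core call was higher. Of the lower regulator calls, that of Psmd5 is for a gene whose product leaves the regulator. Those of Psmc2 and Psmd11 were lost with DESeq2 and in a fit that removed the length trend.

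Of the ATPase genes, Psmc3 was highest, with 622, 541 and 401 CPM in the treated libraries, against 202, 147 and 167 CPM in the control libraries, a log2 change of 1.60 ± 0.20 (edgeR adjusted p = 2.8e-05). Its coordinates overlap Slc39a13 on the opposite strand, which had 25.6% as many counts (1981 in treated and 5972 in control libraries in all). Psmc4 (1.22), Psmc5 (1.08) and Psmc1 (0.70) were also higher, and the calls of Psmc5 and Psmc1 were lost with the length trend removed. Psmc2 went the other way, with 308, 290.5 and 208 CPM in the treated libraries, against 415, 361 and 382 CPM in the control libraries, a log2 change of −0.52 ± 0.18 (edgeR adjusted p = 0.0193). The groups did not overlap, but Psmc2 was not called with DESeq2 (−0.39, adjusted p = 0.0892) and was 0.086 with the length trend removed. Psmc6 had 90.4, 94.7 and 129 CPM in the treated libraries, against 73.0, 123 and 101 CPM in the control libraries; the groups overlapped and the log2 change of 0.080 ± 0.21 was not called (edgeR adjusted p = 0.744). These products sit side by side in 1 ring. Psmc3ip, which is no part of it, was called higher at 0.65, but its coordinates overlap Mlx, which had 122% of its counts.

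Among the non-ATPase genes the highest was Psmd8, of the lid, with 603, 531 and 439 CPM in the treated libraries, against 142, 105 and 114 CPM in the control libraries, a log2 change of 2.12 ± 0.19 (edgeR adjusted p = 2.3e-06). Every treated library lay far above the controls. Psmd13 (1.68) and Psmd3 (0.74) of the lid, the scaffold genes Psmd2 (1.45) and Psmd1 (0.52), and Psmd4 (1.28), for a ubiquitin receptor, were called higher. Other lid genes were not. Psmd14, for the deubiquitinase of the lid, had 127, 117 and 94.0 CPM in the treated libraries, against 94.2, 96.1 and 100.01 CPM in the control libraries, and its log2 change of 0.22 ± 0.15 was not called (edgeR adjusted p = 0.214), though without treated replicate 3 it was (0.29, adjusted p = 0.0384). By library size alone Psmd14 was called lower (−0.84, edgeR adjusted p = 2.6e-04), as it was with ribosomal protein genes held equal (−2.21). With the length trend removed it was 0.067 and not called. Psmd7, for its catalytically inactive partner, had 169, 154 and 139 CPM in the treated libraries, against 222, 172 and 188 CPM in the control libraries. All treated values lay below the controls, yet the log2 change of −0.33 ± 0.16 did not pass (edgeR adjusted p = 0.0733). Without treated replicate 1, treated replicate 3 or control replicate 2 it did, at −0.48, −0.30 and −0.44, and with the length trend removed it did at −0.75. Psmd12 had 80.5, 96.3 and 77.3 CPM in the treated libraries, against 80.4, 86.3 and 79.1 CPM in the control libraries, and Psmd6 had 96.2, 89.0 and 72.9 CPM in the treated libraries, against 101, 94.0 and 103 CPM in the control libraries. Neither was called, with log2 changes of 0.049 ± 0.15 and −0.20 ± 0.15 (edgeR adjusted p = 0.778 and 0.246), although Psmd6 was called lower without treated replicate 1 (−0.37, adjusted p = 0.0485). Psmd11, for another lid subunit, had 88.6, 79.7 and 68.9 CPM in the treated libraries, against 118, 108 and 104 CPM in the control libraries, a log2 change of −0.48 ± 0.15 (edgeR adjusted p = 0.0141). The groups did not overlap, but the call was lost with DESeq2 (−0.35, adjusted p = 0.0808) and the change was 0.35 with the length trend removed. Of the 8 lid genes named Psmd, 3 (Psmd3, Psmd8 and Psmd13) were thus higher, 1 (Psmd11) was lower and 4 (Psmd6, Psmd7, Psmd12 and Psmd14) were not called.

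The start regions of 3 genes are printed to show the letters searched, and were picked by hand after the changes were known: Psma7 and Psmb6 of the core, which were higher, and Psmd11 of the regulator, which was called lower. Each is the 250 bases before the RefSeq transcript start on GRCm38.p6, 5′ to 3′ on the gene's strand, and overlaps no annotated exon. Psma7 (ENSMUSG00000027566, gene at chr2:180036374-180042433, minus strand) has the window chr2:180042465-180042714, Psmb6 (ENSMUSG00000018286, gene at chr11:70525367-70527858, plus strand) the window chr11:70525107-70525356, and Psmd11 (ENSMUSG00000017428, gene at chr11:80428615-80473248, plus strand) the window chr11:80428365-80428614. Capitals mark matches, on either strand, to CCAAT, the letters bound by NF-Y, or to TGACNNNGC, the core of the antioxidant response element that Nrf1, the product of Nfe2l1, and Nrf2 bind.
Psma7: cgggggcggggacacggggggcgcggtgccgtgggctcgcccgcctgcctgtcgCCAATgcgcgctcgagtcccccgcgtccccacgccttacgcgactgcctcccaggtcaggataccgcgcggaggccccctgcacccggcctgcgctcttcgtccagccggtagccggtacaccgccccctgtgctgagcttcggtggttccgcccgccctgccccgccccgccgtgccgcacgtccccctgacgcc
Psmb6: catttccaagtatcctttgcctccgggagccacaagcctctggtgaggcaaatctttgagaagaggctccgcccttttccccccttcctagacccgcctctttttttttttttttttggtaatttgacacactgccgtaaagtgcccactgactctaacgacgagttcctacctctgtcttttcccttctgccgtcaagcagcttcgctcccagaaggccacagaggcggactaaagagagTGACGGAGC
Psmd11: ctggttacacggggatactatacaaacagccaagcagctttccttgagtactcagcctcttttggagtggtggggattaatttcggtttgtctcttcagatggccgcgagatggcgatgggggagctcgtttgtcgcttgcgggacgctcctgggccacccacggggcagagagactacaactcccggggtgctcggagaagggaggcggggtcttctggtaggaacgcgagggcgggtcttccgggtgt

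Psma7 held a CCAAT 196 bases before the start, Psmb6 held TGACGGAGC ending at the start, and Psmd11 held neither. Among genes not printed, Psmc2, lower than Psmd11 in log2 change, held a CCAAT in 1 of its windows, and Psmd8, higher than Psmb6, held neither. RefSeq promoters were matched by symbol for 39 of the 47 genes. A gene was counted where any of its windows held the letters. CCAAT was counted for 14 of 39 genes (35.9%), against 41.1% of 9470 tested genes and 37.5% of all 27025 genes with promoters. It was counted for 7 of 12 core genes, among them the untested Psmb11, and for 6 of 18 regulator genes. TGACNNNGC was in 5 of 39 (12.8%), those of Psmb5, Psmb6, Psmc6, Psmd9 and Psmd12, against 13.9% of tested genes. The 5 genes ran from 0.049 to 2.07 in log2 change. GGGCGG, the GC box, was in 21 of 39 (53.8%), against 63.3% of tested genes. The shares over all 39 were thus near or below the background for each set of letters.

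The core and the regulator differed in every library, and their ratio needs no scaling between libraries. The core took 0.466%, 0.391% and 0.359% of all counts in the treated libraries, against 0.293%, 0.267% and 0.283% in the control libraries, while the regulator took 0.332%, 0.324% and 0.315% in the treated libraries, against 0.401%, 0.386% and 0.397% in the control libraries. The core's shares lay above the controls and the regulator's below them, without overlap. Shares follow the scale of library size alone, where the median log2 change was 0.42 for the core and −0.40 for the regulator. For all tested genes it was −1.21 on that scale, so the regulator's lower share is no fall relative to the typical gene. The 95% Wilson intervals of these shares were at most 0.0085 percentage points wide and cover counting error only. All 47 genes together took 0.779% ± 0.065 in treated and 0.739% ± 0.020 in control libraries (SD, n = 3 each), and these ranges overlapped. Counts of the core over counts of the regulator were 1.40, 1.21 and 1.14 in the treated libraries, against 0.732, 0.693 and 0.713 in the control libraries. The mean ratio was thus 1.75 times as high in treated libraries, and all 3 treated libraries had more core than regulator counts whereas all 3 controls had fewer. The median log2 change of the core exceeded that of the regulator by 0.83, or 1.78-fold. Computed from each treated library against the control mean the difference was 1.04, 0.96 and 0.62 (mean 0.87 ± 0.22, SD, n = 3), and it was 0.78 with the 17 incorporated regulator genes only. Over all the alternatives of scaling, filter, test and left-out library the difference of medians stayed between 0.79 and 0.94. A p-value is not given for it, since the genes were grouped with earlier results of these data known.

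**Figure D3:**
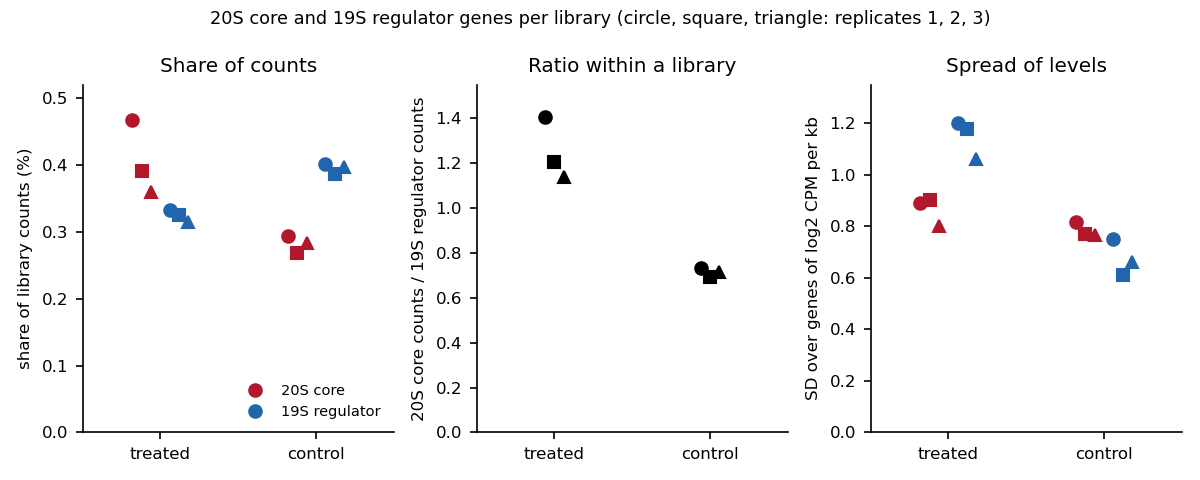
Per library (treated left, control right; circle, square and triangle are replicates 1, 2 and 3), the share of counts of the 20S core (red) and 19S regulator (blue), the ratio of core to regulator counts, and the SD over genes of log2 CPM per kb. The ratio is 1.14 to 1.40 in treated and 0.693 to 0.732 in control libraries, and the spread over the regulator genes is 1.06 to 1.20 in treated and 0.612 to 0.751 in control libraries.

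Per length, the core genes stood above the regulator genes in both groups and further above them after treatment. On the scale of CPM per kb of deposited gene length, the median log2 level of the core exceeded that of the regulator by 2.15, 2.07 and 2.05 in the treated libraries, against 0.98, 0.68 and 0.80 in the control libraries. With the length of the main annotated transcript in place of the deposited gene length, a recomputation chosen after seeing the data, the excess was 1.76, 1.58 and 1.26 in the treated libraries, against 0.68, 0.60 and 0.69 in the control libraries. Subunits of 1 complex are present in equal copies per particle, and in the control libraries the 17 incorporated regulator genes had an SD over genes of 0.751, 0.612 and 0.661 on the log2 scale of CPM per kb. In the treated libraries that SD was 1.20, 1.18 and 1.06, above every control. The log2 changes of these 17 genes had an SD over genes of 0.83, against 1.87 over all tested genes. By transcript length the SD of the levels was 1.09, 1.06 and 0.935 in the treated libraries, against 0.701, 0.549 and 0.606 in the control libraries. For the core the SD was 0.891, 0.901 and 0.802 in the treated libraries, against 0.817, 0.770 and 0.767 in the control libraries, so treated library 3 lay within the control range. By transcript length the core's SD was 1.01, 0.997 and 0.892 in the treated libraries, against 0.766, 0.705 and 0.704 in the control libraries, without overlap. By deposited gene length, Psma5 was the most abundant member in both groups, at 333 ± 69.5 CPM per kb in treated and 192 ± 14.9 CPM per kb in control libraries (mean ± SD, n = 3). Psmb3 came next in treated libraries, at 317 ± 84.6 CPM per kb in treated and 66.7 ± 10.6 CPM per kb in control libraries, and in treated libraries these levels differed by less than their SD. Among the regulator genes Psmc3 was at 200.1 ± 42.9 CPM per kb in treated and 65.9 ± 10.8 CPM per kb in control libraries, and Psmd5 at 3.54 ± 0.936 CPM per kb in treated and 15.7 ± 1.40 CPM per kb in control libraries, so the lowest regulator gene in treated libraries was not the lowest in controls. The top rank of Psma5 depends on the length used. Its main transcript has 1239 bases, against a deposited length of 1321. The main transcript of Psma7 has 914 bases against 3071, and that of Psmb3 766 against 2300. By transcript length Psma7 stood above Psma5 in both groups, and Psmb3 stood above Psma5 in treated libraries.

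**Figure D4:**
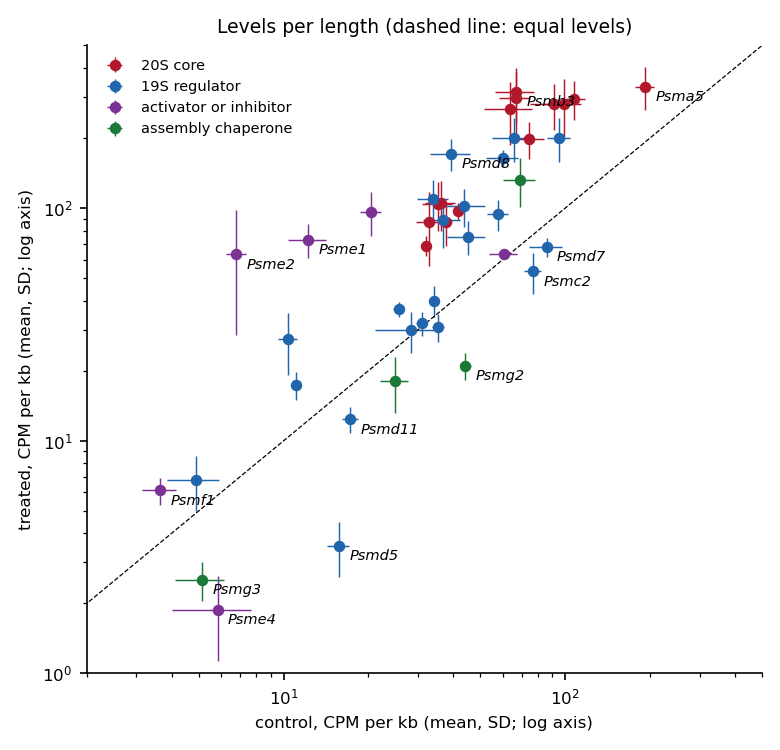
Mean level of each tested proteasome gene in treated libraries (y axis) against control libraries (x axis), in TMM-scaled CPM per kb of deposited gene length (log axes; bars, SD over 3 libraries; dashed line, equal levels). Core genes lie above the line, with Psma5 highest in both groups, while Psmc2, Psmd5, Psmd6, Psmd7, Psmd11, Psmg1, Psmg2, Psmg3 and Psme4 lie below it; with ribosomal protein genes held equal 39 of the members are called lower and 1 higher.

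The genes of proteins that bind the ends of the core were split. Of 6 activator and inhibitor genes, 4 were higher, 1 lower and 1 not called (median 1.49). With ribosomal protein genes held equal only Psme2 stayed called higher, close to the threshold (0.73, edgeR adjusted p = 0.0493). Psme2 and Psme1 encode the subunits of PA28αβ, an interferon-inducible activator that opens the core without ATP. Psme2 had 180.3, 91.9 and 62.6 CPM in the treated libraries, against 13.1, 11.6 and 11.2 CPM in the control libraries, a log2 change of 3.22 ± 0.35 (edgeR adjusted p = 1.4e-05), the largest among the members. Without treated replicate 1, its highest library, the change was 2.61. Psme1 had 173, 181 and 130.4 CPM in the treated libraries, against 31.7, 23.8 and 25.6 CPM in the control libraries, a log2 change of 2.58 ± 0.19 (edgeR adjusted p = 8.9e-07). For both genes the groups did not overlap. Psme2b, a single-exon near copy of Psme2, was called higher (2.24), and since reads could have been split between the copies in counting, the levels of both are uncertain. Psme3, for the nuclear activator PA28γ, had 196, 180.2 and 187 CPM in the treated libraries, against 201, 164 and 170.1 CPM in the control libraries, and its log2 change of 0.074 ± 0.14 was not called (edgeR adjusted p = 0.657). Its groups overlapped. Psme4, for the nuclear activator PA200, had 10.9, 13.5 and 22.8 CPM in the treated libraries, against 32.3, 62.1 and 52.2 CPM in the control libraries, a log2 change of −1.63 ± 0.31 (edgeR adjusted p = 7.9e-04), and no treated library reached the controls. Psmf1, for the inhibitor PI31, had 39.7, 44.6 and 34.0 CPM in the treated libraries, against 25.6, 19.8 and 24.9 CPM in the control libraries and was called higher at 0.75 ± 0.19 (edgeR adjusted p = 0.00348), with −0.30 and no call by library size alone.

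The chaperones that assemble the core had genes called in both directions. Of 4, 1 was higher, 2 lower and 1 not called (median −0.74), and by library size alone 0 were higher and 3 lower. Together they took 0.00864%, 0.00958% and 0.00809% of counts in the treated libraries, against 0.0197%, 0.0183% and 0.0193% in the control libraries, so every treated share was below every control share. Shares follow the scale of library size alone, where the all-gene median log2 change was −1.21 and 59.6% of all genes were called lower. The median of the chaperones on that scale was −1.78. Psmg1 and Psmg2 encode the dimer on which the alpha ring forms. Psmg2 had 24.8, 22.8 and 19.1 CPM in the treated libraries, against 49.0, 44.6 and 46.9 CPM in the control libraries, a log2 change of −1.08 ± 0.17 (edgeR adjusted p = 1.7e-04), without overlap. Psmg1 had 18.5, 31.4 and 23.1 CPM in the treated libraries, against 37.3, 29.9 and 32.6 CPM in the control libraries. The groups overlapped through treated library 2, and its log2 change of −0.45 ± 0.22 was not called (edgeR adjusted p = 0.0773) but became −0.75 with a call without that library (adjusted p = 0.00712). Psmg3 and Psmg4 encode another dimer that acts on the alpha ring. Psmg3 had 8.83, 7.07 and 6.03 CPM in the treated libraries, against 17.2, 11.6 and 15.7 CPM in the control libraries, a log2 change of −1.02 ± 0.25 (edgeR adjusted p = 0.00307), whereas Psmg4 had 82.9, 84.2 and 53.4 CPM in the treated libraries, against 43.7, 33.8 and 37.9 CPM in the control libraries, a log2 change of 0.93 ± 0.20 (edgeR adjusted p = 0.00147). The partners thus moved in opposite directions, although Psmg4, whose deposited gene length of 555 bases is the shortest of all members, was called lower with the length trend removed (−0.64, adjusted p = 0.00533). The chaperones of the regulator base were uneven as well. Psmd5 had 33.3, 22.7 and 20.7 CPM in the treated libraries, against 119.9, 102 and 119 CPM in the control libraries, a log2 change of −2.15 ± 0.20 (edgeR adjusted p = 3.5e-06), the largest fall among the members, and it was called lower on the TMM scale, under both other scalings named above and with the length trend removed. Psmd10, for gankyrin, was called higher (1.40). Psmd9 had 62.1, 49.8 and 36.0 CPM in the treated libraries, against 42.9, 28.2 and 35.0 CPM in the control libraries, and its log2 change of 0.48 ± 0.23 was not called (edgeR adjusted p = 0.0785) but was called higher without treated replicate 3 (0.63, adjusted p = 0.0097), with DESeq2 (0.61, adjusted p = 0.0354) and with the length trend removed (1.43, adjusted p = 7.0e-04). It was called lower by library size alone (−0.58, edgeR adjusted p = 0.0209). The same held with ribosomal protein genes held equal (−1.95, edgeR adjusted p = 4.9e-05), so its direction depends on the setting. Pomp, which is no member by the symbol rule and encodes the maturation factor of the beta ring, went with the core: it averaged 650.4 CPM in treated and 143 CPM in control libraries, a log2 change of 2.18 ± 0.17 (edgeR adjusted p = 1.3e-06), which was −0.24 with ribosomal protein genes held equal.

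In these libraries the change of a gene went with its length. Over all tested genes in 10 bins of deposited gene length, the median log2 change ran from 1.78 in the shortest bin (median length 651 bases) to −1.27 in the longest (11871 bases). Proteasome genes are short: the median deposited gene length was 2335 bases for the core, 2820 for the regulator and 1202 for the chaperones, against 3950 for all tested genes. Set against the median of its own length bin, the change was higher for 12 of 14 core genes (all but Psma5 and Psmb5), with a median difference of 1.07. The same held for 15 of 21 regulator genes (median difference 0.24), for 4 of 6 activator and inhibitor genes (0.97) and for 0 of 4 chaperone genes (−1.33). In the fit that removed the length trend, 12 of 14 core genes were called higher and 0 lower (median 1.27), 10 of 21 regulator genes were higher and 3 lower (0.35; the lower ones were Psmd5, Psmd6 and Psmd7, not Psmc2 and Psmd11), and 4 of 4 chaperone genes were lower (−1.24), against 37.2% higher and 34.3% lower over all genes. The core then stood 1.20 above the all-gene median and the regulator 0.28, compared with 1.66 and 0.82 before. By the main coding transcript of each gene the core was shorter than the regulator, with a median mRNA of 1163 against 1785 bases, a coding sequence of 744 against 1221 bases and a 3′ UTR of 161 against 354 bases. The median mRNA of 11444 tested genes with a coding transcript was 2923 bases. Across the 35 core and regulator genes the change had a Spearman correlation of −0.48 with mRNA length (Pearson −0.57 with its log2), and across all 11444 genes of −0.47. Within the core it was −0.49 (n = 14) and within the regulator −0.28 (n = 21). These are descriptions over genes that share their libraries. With the GC content of the coding sequence the Spearman correlation was 0.73 in the core and 0.52 in the regulator, against 0.13 over all genes. ATTTA, the core letters of AU-rich decay elements, occurred in the 3′ UTR of 17 of 45 members (37.8%), 5 of 14 in the core, 8 of 21 in the regulator and 0 of 4 among the chaperones, against 63.9% of all genes. The median 3′ UTR was 241 bases for the members and 917 for all genes. A shorter 3′ UTR has fewer places for a match, and the shares were not adjusted for length. Regulator genes with the letters had a median change of 0.35 and those without 0.74. In the core the medians were 1.54 and 1.46.

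**Figure D5:**
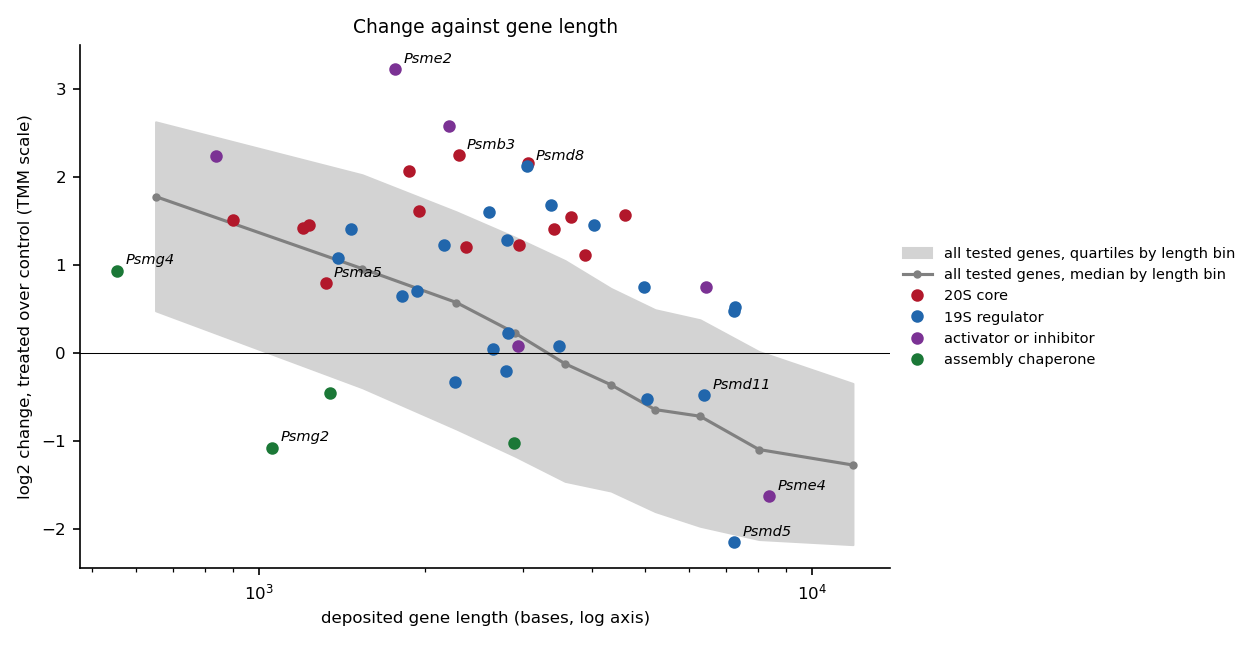
Log2 change (treated over control, TMM scale) of the tested proteasome genes against deposited gene length in bases (log axis), with the median and quartiles of all tested genes in 10 length bins in grey. The all-gene median falls from 1.78 to −1.27 with length; 12 of 14 core genes lie above the median of their bin and all 4 chaperone genes below theirs.

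Genes around the proteasome changed in both directions, and many of their calls moved with the length trend removed. Of 10 tested genes of other proteasome components and factors (of 11 listed), 2 were higher, 5 lower and 3 not called, against the background of 34.6% and 40.2%. With the length trend removed 5 were higher and 4 lower: Usp14 (0.98) and Ecpas (1.12) gained a call, and Ube3c turned from lower (−0.65) to higher (0.44). Sem1, the smallest lid subunit, averaged 524 CPM in treated and 69.5 CPM in control libraries (2.91 ± 0.22, edgeR adjusted p = 9.4e-07), in the direction of Psmd8 and against that of Psmd11. Adrm1, a ubiquitin receptor of the regulator, averaged 70.6 CPM in treated and 153 CPM in control libraries (−1.12 ± 0.19, edgeR adjusted p = 2.4e-04), while the receptor gene Psmd4 was higher. Akirin2, whose product brings proteasomes into the nucleus, averaged 2.24 CPM in treated and 42.8 CPM in control libraries (−4.24 ± 0.28, edgeR adjusted p = 5.7e-07), and Zfand5, for a ubiquitin-binding activator, changed by −3.46 ± 0.39 (−4.06 without treated replicate 3). Of 10 genes of transcriptional control, 1 was higher, 7 lower and 2 not called on the TMM scale, and with the length trend removed 2 were higher and 4 lower, since Nfe2l1, Ngly1 and Nfyb lost their calls and Mafg gained one (0.59). Nfe2l1, which encodes the factor that induces proteasome genes when proteasomes are inhibited, averaged 177 CPM in treated and 301 CPM in control libraries (−0.76 ± 0.15, edgeR adjusted p = 7.5e-04), and was −0.10 with the length trend removed. Ddi2, for the protease that activates it, changed by −2.18 ± 0.30, Nfya, for an NF-Y subunit, by −2.59 ± 0.25, and Maff, for a small Maf partner, by 2.57 ± 0.17, each called. The call of Maff was lost with ribosomal protein genes held equal (0.19, edgeR adjusted p = 0.377). Among genes that supply and activate ubiquitin, Rps27a (2.51 ± 0.36), where ubiquitin is fused to a ribosomal protein, was called higher. With ribosomal protein genes held equal its change was 0.094 and not called (edgeR adjusted p = 0.746). Rps27a is itself among the genes held equal, so that value is partly set by the scaling and is no separate check of the call. The E1 gene Uba6 (−1.75 ± 0.45) was called lower, a call lost with the length trend removed (−0.76, adjusted p = 0.0921). Of 9 tested substrate delivery genes (of 10 listed), 3 were higher, 5 lower and 1 not called, and with the length trend removed 3 were higher and 3 lower. Ufd1 (1.37 ± 0.14) and Vcp (0.82 ± 0.16), of the segregase complex that extracts substrates, were higher, although Vcp was −0.23 by library size alone and both were negative with ribosomal protein genes held equal. Faf1 (−2.15 ± 0.19), a cofactor of that complex, and Ubqln4 (−1.07 ± 0.15), a shuttle factor, were lower.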

How the data were processed

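The deposited table gives whole-number counts per gene for 6 libraries, and the authors' FPKM values and a gene length in bases (a value of type other) stand beside them, per the file headers. Per the submitters' processing notes, which state no role or order, the tools were RSEM 1.3.1, DESeq2 1.24.0 and HISAT2 2.1.0, and mm10 and GRCm38 the builds. Use of strand and the handling of shared reads are not given in the sources used here. Control columns were matched through their WT genotype name and number.

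Members and gene lists were chosen with earlier results of these data known. Genes passing edgeR's filterByExpr (13290 of 24708 with a count) were fitted with TMM factors in edgeR 4.0.16 (glmQLFit with robust estimation, glmQLFTest; R 4.3.3) on the deposited counts, treated against control. P-values were adjusted by Benjamini-Hochberg, with a threshold of 0.05. Library totals of 16056207 to 18036322 counts limit precision, and intervals and floors cover counting error only. The gene length fit adds a lowess offset (span 0.3) of each library's log2 CPM on deposited length. Other settings were library size alone, median-ratio factors, ribosomal protein genes held equal, no filter, at least 1 CPM in 3 libraries, DESeq2 1.42.0, limma 3.58.1 on log2 of the deposited FPKM + 1 or + 0.1 (FPKM mean at least 1), a replicate block, and each library left out. Log2 CPM used a prior count of 2, and per-library differences a pseudocount of 0.5 CPM. Transcript features came from the main coding transcript of the GENCODE annotation, and promoter sequences from RefSeq.

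On simulated counts of 12949 genes with 200 changed, the edgeR fit called 50 of 100 genes changed by a log2 of 1 and 93 of 100 changed by 2, with 11 false calls among 154. The simulated rises and falls were balanced and far fewer than the calls in the data. The simulation therefore cannot show how the choice of scaling affects the calls. Values in every library are given for the catalytic genes, the highest and lowest changes of each role, the genes called lower and those not called. For other lists at most the 2 largest rises and falls are named. Some genes of the ubiquitin list are not reported here.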

Additional observations from a re-analysis of the deposited data

How the results depend on the processing

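Calls were counted on the TMM scale with an all-gene median of −0.18. The 14 core genes stayed called higher with median-ratio factors, DESeq2, either filter, the FPKM fits, the replicate block and each library left out, and 12 of them with the length trend removed. The regulator, at 12 higher and 3 lower, had 12 to 14 higher and 3 to 5 lower with a library left out (5 without treated replicate 1), and the 45 members kept every call. It had 1 lower with median-ratio factors, with DESeq2 and with limma on log2(FPKM + 1) without a filter, where the calls of Psmc2 and Psmd11 were lost, and the other FPKM fits lost that of Psmc2. Without a filter Psmd1 and Psmc3ip lost their calls.

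Over all genes, 4604 were higher and 5337 lower, 4125 to 4564 and 4928 to 5737 with a library left out. By library size alone, which moved the all-gene median by −1.04, 2276 of all genes, 16 members, 9 core and 4 regulator genes were higher and 17 members and 12 regulator genes lower. With ribosomal protein genes held equal (−2.38), 251 of all genes, 1 member, 0 core and 0 regulator genes were higher, and 10944 of all genes, 39 members, 12 core and 20 regulator genes lower. These shifts are the settings' own construction, since a scaling moves all genes nearly alike.

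Usp14, at 0.22 and not called on the TMM scale, turned to −0.82 by library size alone and to −2.18 with ribosomal protein genes held equal, both called. Log2 changes of the other members and named genes that turned sign and were called on at least 1 side were as follows. With ribosomal protein genes held equal they were −0.29 for Psma7, −0.94 for Psmd2, −0.19 for Psmb3, −0.82 for Psmb4, −0.29 for Psmd8, −0.82 for Psmc3, −1.63 for Psma5, −1.66 for Psmd3, −0.86 for Psmb1, −0.37 for Psmb6, −0.97 for Psma6, −2.31 for Psme3, −0.89 for Psma2, −0.75 for Psmd13, −1.86 for Psmd1, −1.36 for Psmc5, −1.15 for Psmd4, −1.04 for Psmb7, −1.30 for Psma3, −1.18 for Psma1, −0.93 for Psmb5, −1.19 for Psmc4, −1.72 for Psmc1, −0.997 for Psmb2, −1.23 for Psma4, −2.30 for Psmc6, −2.21 for Psmd14, −2.37 for Psmd12, −1.50 for Psmg4, −1.95 for Psmd9, −0.16 for Psme2b, −1.65 for Psmf1, −1.77 for Psmc3ip, −1.03 for Psmd10, −0.50 for Psmb8, −0.35 for Psmb9, −0.72 for Psmb10, −0.24 for Pomp, −1.58 for Vcp and −1.02 for Ufd1. With the length trend removed they were 0.086 for Psmc2, −0.13 for Psma5, 0.35 for Psmd11, −0.64 for Psmg4 and 0.44 for Ube3c, while Psmd12 (−0.19), Psme3 (−0.0083) and, with a call gained, Ecpas (1.12) and Mafg (0.59) also turned. With the length trend removed and a replicate block they were 0.049 for Psmc2, −0.14 for Psma5, 0.33 for Psmd11 and −0.65 for Psmg4. By library size alone they were −0.26 for Psma5, −0.30 for Psmd3, −0.96 for Psme3, −0.52 for Psmd1, −0.35 for Psmc1, −0.95 for Psmc6, −0.84 for Psmd14, −1.003 for Psmd12, −0.13 for Psmg4, −0.58 for Psmd9, −0.30 for Psmf1, −0.40 for Psmc3ip and −0.23 for Vcp.

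The replicate block gave 13 regulator genes higher and 3 lower and also called Psmd9 (0.47) and Psmg1 (−0.48), with 4450 higher and 5411 lower over all genes. Same-numbered libraries correlated in their deviations at 0.22, −0.14 and 0.03, and differently numbered ones at −0.38 to 0.38. No label says whether a shared number marks a shared culture or day, and these values cannot show it. With 3 libraries a group, none was tested as an outlier. The effects of TNF-α and actinomycin d cannot be told apart, and low genes such as Psmg3 rest on under 20 CPM a library.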
